A study of Danio rerio with 11 samples.

Results

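The gastrointestinal tract (GIT) libraries of adult zebrafish were examined for 45 genes of complement, coagulation and the major plasma proteins, listed by zebrafish symbol. Of these, 41 were found in the deposited tables, among 32520 genes for 18.5-mel and 19071 genes for each irradiated group, and f13b, apoh, hp and hpx were not matched by symbol. All fish were of the AB strain. The torpor group (18.5-mel, 2 libraries) was acclimated over several weeks to 18.5 °C and then kept with 24 µM melatonin in the water. The radiation group (28.5-rad, 3 libraries) stayed at 28.5 °C and received a whole-body caesium-137 dose of 32.64 cGy by the sample labels, given in a pair of exposures under tricaine. The group with torpor and radiation (18.5-mel-rad, 4 libraries) had the cold, the melatonin and the same dose, and the control group (28.5-Ctrl, 2 libraries) stayed at 28.5 °C with neither. Cold and melatonin were always given together in these groups, so that their parts cannot be told apart, and each comparison is with the same 2 control libraries by the labels.

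Fibrinogen, the clotting factors, the complement proteins and the carriers of plasma are made mainly by hepatocytes and secreted into the blood. Clotting runs through a chain of proteases to thrombin, which cuts fibrinogen into the fibrin mesh, and serpins hold these proteases in check. Complement runs through cleavage of C3 and C5 to a membrane attack complex built from the terminal components. The zebrafish liver lies folded against the intestine, and gut cells also make some complement and carrier transcripts.

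For each gene and comparison, the deposited tables give a log2 fold change against 28.5-Ctrl with its standard error, and the average normalized count over the libraries of the fit, called mean expression here. Which libraries each fit held is not given in the sources used here. The values of the irradiated tables do not match a mean over 28.5-Ctrl and 1 treated group alone. For 53 genes at 100 normalized counts or more whose log2 fold changes in these tables differed by over 2, such means would put the control level of the same gene at values a median of 2.74-fold apart, while the means themselves differed by at most 1.35-fold. In the 18.5-mel comparison, 94 of 26922 genes with a fold change (0.349%) had no p-value. By default DESeq2 does not withhold a p-value for an outlying count in a group of 2 libraries. That fit, too, may thus have held more than the 2 libraries of 18.5-mel and the 2 of 28.5-Ctrl. A standard error may therefore include the spread of libraries outside the comparison. Values after ± are standard errors of the log2 fold change throughout. The tables hold 1 value per gene and comparison, so values of single libraries and their depth are not given here. A gene was called raised or lowered at an adjusted p of at most 0.1 (Wald test, Benjamini-Hochberg) and a log2 fold change of 0.58 or more in size. The lowest mean expression that had an adjusted p was 1.55 normalized counts in the 18.5-mel comparison, 63.1 in 28.5-rad and 7.84 in 18.5-mel-rad, so a gene under 63.1 could not be called in 28.5-rad. The labels do not say whether libraries of 1 group came from separate fish in every case, so the p-values measure only the spread between the libraries of each fit.

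The plasma protein, coagulation and complement genes had log2 fold changes below 0 in nearly every case, with wide errors, and few were called. In 18.5-mel, 38 of the 41 genes were below 0, with a median of -2.32, against a median of 0.01 over all genes tested and 49.6% of them below 0. In 28.5-rad all 41 were below 0, with a median of -2.60 against 0.01 over all genes tested, of which 48.3% were below 0. In 18.5-mel-rad 40 were below 0, with a median of -2.39 against 0.02 over all genes tested, of which 48.9% were below 0. The 3 medians rest on the same 2 control libraries and are not separate evidence of a direction. Nor are the 41 genes of a comparison separate observations, since they were measured in the same libraries.

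In 18.5-mel, all 41 genes had an adjusted p, 1 was called raised (c6) and 3 were called lowered (rbp4, tfa and c4b). Over all genes tested in that comparison, 37.1% were called, 21.3% raised and 15.8% lowered, so the calls among the plasma protein genes were fewer than the background. An unadjusted p under 0.05 was reached by 4 of the 41, against 30% of all genes with a p-value. In 28.5-rad, 33 genes had an adjusted p and none was called, where 1.94% of all genes tested were called, 1.34% raised and 0.599% lowered. The adjusted p of the 33 genes ran from 0.513 for c8g to 0.889 for c6, and only c7b had an unadjusted p under 0.05 (0.0470), against 5.77% of all genes with a p-value. In 18.5-mel-rad, 37 genes had an adjusted p, none was called raised and 2 were called lowered (c7b and kng1), where 11.7% of all genes tested were called, 6.06% raised and 5.68% lowered. An unadjusted p under 0.05 was reached by 6 genes there (f10, c4b, c7b, cfb, kng1 and rbp4), all below 0, against 16.8% of all genes with a p-value. The intervals of all genes with an unadjusted p of 0.05 or more held 0 and, for most, also large negative values, so that a missing call does not show an unchanged level.

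**Figure D1:**
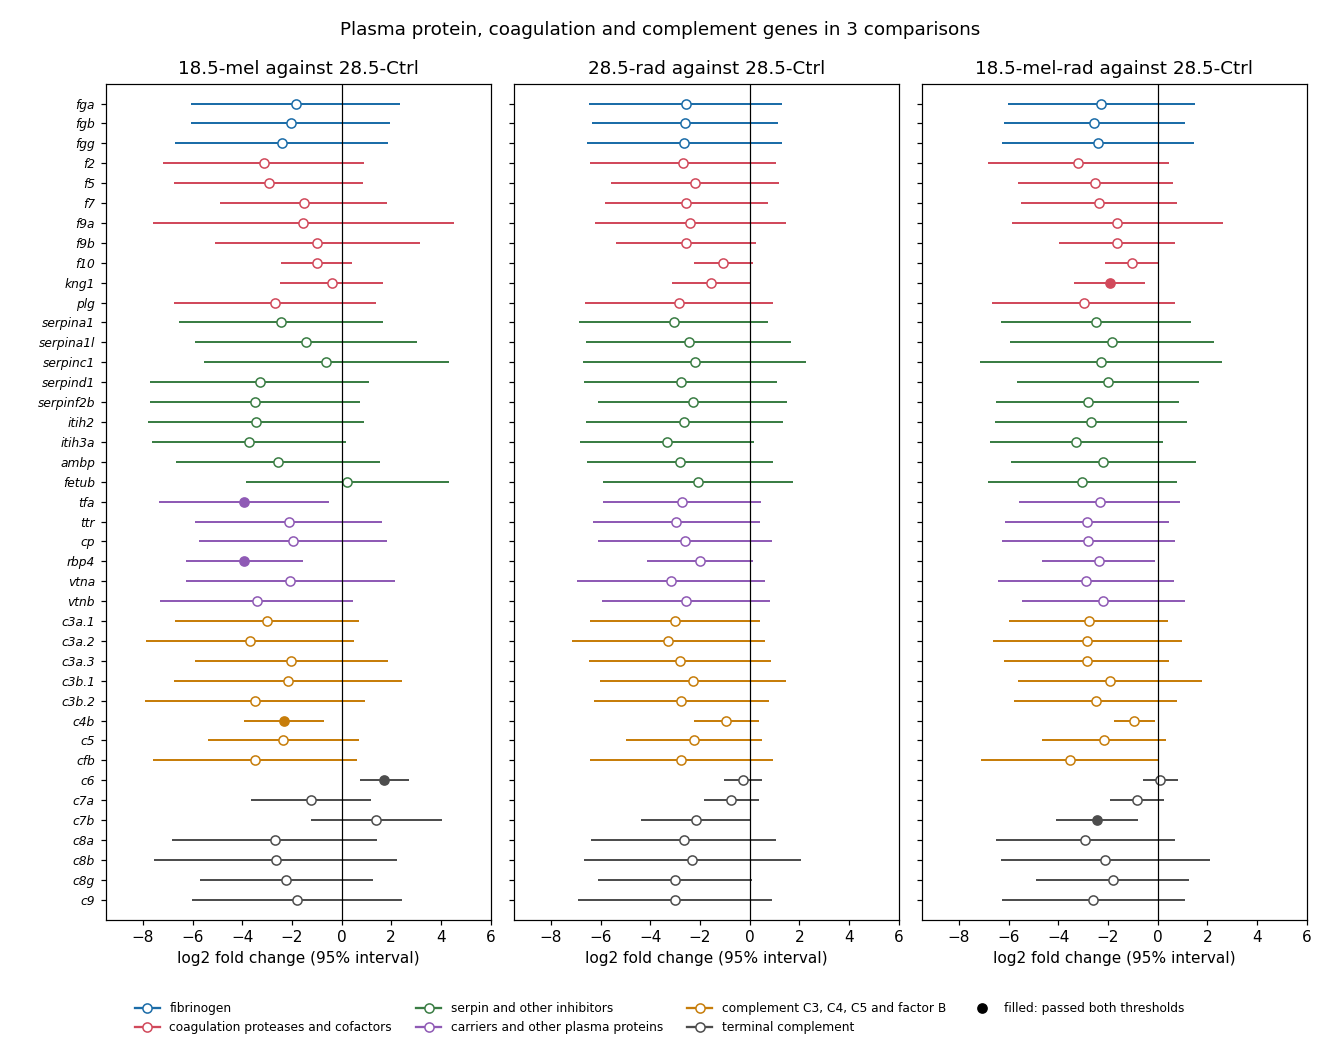
Log2 fold change against 28.5-Ctrl of the 41 genes, grouped by role, with the 95% interval (1.96 standard errors) as a line and filled points for genes called raised or lowered. Most points sit between -2 and -4 and the lines of 37 genes in 18.5-mel, 40 in 28.5-rad and 35 in 18.5-mel-rad cross 0.

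The fibrinogen genes had estimates close to each other and none was called in any comparison. Fibrinogen is a hexamer of α, β and γ chains, encoded by fga, fgb and fgg. The log2 fold change of fga, the most abundant of them in these tables, was -1.85 ± 2.12 in 18.5-mel, -2.57 ± 1.96 in 28.5-rad and -2.27 ± 1.90 in 18.5-mel-rad. Its mean expression was 1188 normalized counts in the table of 18.5-mel, 1865 in that of 28.5-rad and 1385 in that of 18.5-mel-rad. For fgb the log2 fold change was -2.05 ± 2.03 in 18.5-mel, -2.60 ± 1.88 in 28.5-rad and -2.56 ± 1.84 in 18.5-mel-rad. For fgg it was -2.41 ± 2.17 in 18.5-mel, -2.63 ± 1.98 in 28.5-rad and -2.39 ± 1.95 in 18.5-mel-rad. Point estimates of the 3 chains thus differed by less than their standard errors in each comparison, while the interval of fga in 28.5-rad ran from -6.41 to 1.28.

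Among the coagulation proteases and cofactors, all 8 genes found were below 0 in the 3 comparisons and 1 was called, kng1 in 18.5-mel-rad. Kininogen, its product, is the precursor of bradykinin and a cofactor of contact activation. The log2 fold change of kng1 was -0.40 ± 1.04 in 18.5-mel (adjusted p = 0.808), -1.54 ± 0.80 in 28.5-rad, where no adjusted p was given, and -1.93 ± 0.71 in 18.5-mel-rad (adjusted p = 0.0563). It fell 3.82-fold in 18.5-mel-rad, with an interval of the log2 fold change from -3.32 to -0.55. Its span in the RefSeq annotation of GRCz12tu overlaps lamp3 and mccc1, and the strand setting of the counting is not given in the sources used here, so reads of these genes may be mixed.

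The most abundant of the proteases was plg, encoding plasminogen, the zymogen of the enzyme that dissolves fibrin. Its mean expression was 582 normalized counts in the table of 18.5-mel, 937 in that of 28.5-rad and 782 in that of 18.5-mel-rad. Its log2 fold change was -2.68 ± 2.06 in 18.5-mel (adjusted p = 0.336), -2.86 ± 1.91 in 28.5-rad (adjusted p = 0.680) and -2.99 ± 1.87 in 18.5-mel-rad (adjusted p = 0.350). Prothrombin, from f2, is the precursor of thrombin, and its log2 fold change was -3.14 ± 2.05 in 18.5-mel, -2.67 ± 1.89 in 28.5-rad and -3.20 ± 1.84 in 18.5-mel-rad. Factor V, from f5, is the cofactor of factor X, with log2 fold changes of -2.93 ± 1.92 in 18.5-mel, -2.20 ± 1.70 in 28.5-rad and -2.51 ± 1.57 in 18.5-mel-rad. Factor X itself, from f10, had much narrower errors, with -1.0 ± 0.70 in 18.5-mel, -1.05 ± 0.58 in 28.5-rad and -1.05 ± 0.52 in 18.5-mel-rad. The unadjusted p of f10 was 0.0408 in 18.5-mel-rad and its adjusted p was 0.198 (DESeq2 Wald test as deposited), so it was not called.

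Factor VII, from f7, starts clotting together with tissue factor, and its log2 fold change was -1.53 ± 1.70 in 18.5-mel, -2.54 ± 1.66 in 28.5-rad and -2.36 ± 1.58 in 18.5-mel-rad. The f9a and f9b genes encode factor IX proteins, which activate factor X. They were the scarcest of the clotting genes, with mean expression of 1.90 to 3.42 normalized counts for f9a and 6.94 to 9.75 for f9b. The log2 fold changes of f9a and f9b were -1.53 ± 3.06 and -0.98 ± 2.09 in 18.5-mel, -2.39 ± 1.94 and -2.58 ± 1.42 in 28.5-rad, and -1.63 ± 2.15 and -1.63 ± 1.17 in 18.5-mel-rad. Neither had an adjusted p in the irradiated groups.

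None of the 9 serpin and other inhibitor genes was called in any comparison, and their standard errors were all between 1.75 and 2.5. The most abundant was fetub, encoding fetuin B, a metalloprotease inhibitor, at 1705 normalized counts in the table of 18.5-mel, 1929 in that of 28.5-rad and 1734 in that of 18.5-mel-rad. It was 1 of the 3 genes above 0 in any comparison, with a log2 fold change of 0.23 ± 2.06 in 18.5-mel (adjusted p = 0.951), against -2.08 ± 1.94 in 28.5-rad (adjusted p = 0.818) and -3.04 ± 1.92 in 18.5-mel-rad (adjusted p = 0.357). The intervals of these values overlap over most of their length, and the differences between the treated groups were not tested. The serpina1 and serpina1l genes encode proteins related to alpha-1-antitrypsin, the inhibitor of neutrophil elastase. Their log2 fold changes were -2.43 ± 2.08 and -1.45 ± 2.26 in 18.5-mel, -3.05 ± 1.92 and -2.45 ± 2.08 in 28.5-rad, and -2.48 ± 1.93 and -1.83 ± 2.07 in 18.5-mel-rad. In 18.5-mel-rad the table gives no p-value for serpina1, nor for itih3a, although their mean expression was 1294 and 272 normalized counts. DESeq2 withholds the p-value of a gene with an outlying count in 1 library, which held for 60 of 18133 genes with a fold change (0.331%) in that table.

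Antithrombin, from serpinc1, inhibits thrombin and factor X, and its log2 fold change was -0.61 ± 2.5 in 18.5-mel, -2.22 ± 2.27 in 28.5-rad and -2.28 ± 2.46 in 18.5-mel-rad, at 33.0 to 46.8 normalized counts. Heparin cofactor II, from serpind1, also inhibits thrombin, with -3.29 ± 2.23 in 18.5-mel, -2.78 ± 1.97 in 28.5-rad and -2.0 ± 1.85 in 18.5-mel-rad. The plasmin inhibitor gene serpinf2b had -3.49 ± 2.13 in 18.5-mel, -2.29 ± 1.92 in 28.5-rad and -2.82 ± 1.86 in 18.5-mel-rad. Each of these protease inhibitors was thus below 0 in every comparison with an interval that held 0. The itih2 and itih3a genes encode heavy chains of the inter-alpha-trypsin inhibitor and ambp encodes its light chain, bikunin. For itih3a the log2 fold change was -3.72 ± 1.98 in 18.5-mel, where its adjusted p was 0.144, -3.32 ± 1.77 in 28.5-rad and -3.27 ± 1.75 in 18.5-mel-rad. For itih2 it was -3.45 ± 2.19 in 18.5-mel, -2.63 ± 2.0 in 28.5-rad and -2.68 ± 1.95 in 18.5-mel-rad, and for ambp -2.54 ± 2.07 in 18.5-mel, -2.81 ± 1.89 in 28.5-rad and -2.19 ± 1.88 in 18.5-mel-rad.

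Of the 6 carriers and other plasma proteins found, rbp4 and tfa were lowered in 18.5-mel and no carrier was called in the irradiated groups. Retinol binding protein, from rbp4, carries vitamin A in plasma. Its log2 fold change was -3.92 ± 1.18 in 18.5-mel (adjusted p = 0.00471), a 15.2-fold fall with an interval from -6.24 to -1.61. In 28.5-rad rbp4 had -2.0 ± 1.07 (adjusted p = 0.536) and in 18.5-mel-rad -2.38 ± 1.13 (adjusted p = 0.181), so that the estimates of the 3 groups all lay below 0 and only that of 18.5-mel passed. Its mean expression was 1821 normalized counts in the table of 18.5-mel, 3101 in that of 28.5-rad and 2927 in that of 18.5-mel-rad. Its span overlaps fra10ac1 in the RefSeq annotation.

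Transferrin, from tfa, carries iron, and tfa had the highest mean expression of all 41 genes, at 4217 normalized counts in the table of 18.5-mel, 7018 in that of 28.5-rad and 6219 in that of 18.5-mel-rad. Its log2 fold change was -3.92 ± 1.73 in 18.5-mel (adjusted p = 0.0700), -2.72 ± 1.59 in 28.5-rad (adjusted p = 0.593) and -2.34 ± 1.63 in 18.5-mel-rad (adjusted p = 0.418). The fall in 18.5-mel, 15.1-fold, had an interval from -7.30 to -0.53 and was the only call among those of the 41 genes with a standard error of 1.5 or more. Transthyretin, from ttr, binds thyroid hormone, and its log2 fold change was -2.13 ± 1.90 in 18.5-mel, -2.95 ± 1.70 in 28.5-rad and -2.87 ± 1.66 in 18.5-mel-rad. Ceruloplasmin, from cp, is a copper-bearing ferroxidase, with -1.96 ± 1.91 in 18.5-mel, -2.61 ± 1.77 in 28.5-rad and -2.79 ± 1.75 in 18.5-mel-rad. Vitronectin binds matrix and the terminal complement complex, and its genes had log2 fold changes of -2.06 ± 2.12 in 18.5-mel, -3.16 ± 1.92 in 28.5-rad and -2.89 ± 1.79 in 18.5-mel-rad for vtna and of -3.42 ± 1.95 in 18.5-mel, -2.56 ± 1.70 in 28.5-rad and -2.18 ± 1.65 in 18.5-mel-rad for vtnb.

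Among the 8 genes of complement C3, C4, C5 and factor B, all were below 0 in every comparison and c4b was lowered in 18.5-mel. C4 is the component shared by the classical and lectin pathways. The log2 fold change of c4b was -2.32 ± 0.80 in 18.5-mel (adjusted p = 0.0163), a 5.01-fold fall, with an interval from -3.90 to -0.75. In 28.5-rad it was -0.94 ± 0.64 (adjusted p = 0.692) and in 18.5-mel-rad -0.94 ± 0.40 (adjusted p = 0.125, unadjusted p = 0.0201). The most abundant of these genes was c3a.1, 1 of the zebrafish copies of C3, at 2858 normalized counts in the table of 18.5-mel, 4634 in that of 28.5-rad and 3251 in that of 18.5-mel-rad. Its log2 fold change was -3.01 ± 1.87 in 18.5-mel (adjusted p = 0.222), -3.00 ± 1.73 in 28.5-rad (adjusted p = 0.579) and -2.78 ± 1.62 in 18.5-mel-rad (adjusted p = 0.307). These 3 estimates differ by less than 1 standard error.

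The other C3 genes gave log2 fold changes of -3.69 ± 2.12 in 18.5-mel, -3.28 ± 1.96 in 28.5-rad and -2.83 ± 1.92 in 18.5-mel-rad for c3a.2, and of -2.03 ± 1.96 in 18.5-mel, -2.81 ± 1.84 in 28.5-rad and -2.86 ± 1.67 in 18.5-mel-rad for c3a.3. The pair c3b.1 and c3b.2 was scarcer, at 48.3 to 80.7 normalized counts, with -2.17 ± 2.32 in 18.5-mel, -2.29 ± 1.89 in 28.5-rad and -1.91 ± 1.87 in 18.5-mel-rad for c3b.1 and -3.49 ± 2.24 in 18.5-mel, -2.75 ± 1.77 in 28.5-rad and -2.5 ± 1.66 in 18.5-mel-rad for c3b.2. C3 copies that resemble each other can share reads, and how such reads were counted is not given in the sources used here, so the values of single copies are uncertain. C5 is cleaved to start the attack complex, and c5 had -2.34 ± 1.53 in 18.5-mel, -2.24 ± 1.38 in 28.5-rad and -2.17 ± 1.26 in 18.5-mel-rad. Factor B, from cfb, carries the protease of the alternative pathway. Its log2 fold change was -3.48 ± 2.08 in 18.5-mel, -2.75 ± 1.86 in 28.5-rad and -3.55 ± 1.79 in 18.5-mel-rad, where the unadjusted p was 0.0472 and the adjusted p 0.217.

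The terminal complement genes were the least uniform class, with c6 raised in 18.5-mel, c7b lowered in 18.5-mel-rad and no other call. C6 and C7 join C5b at the start of the attack complex, and C8 and C9 form its pore. The log2 fold change of c6 was 1.72 ± 0.48 in 18.5-mel (adjusted p = 0.00215), with an interval from 0.78 to 2.67. In 28.5-rad c6 had -0.28 ± 0.37 (adjusted p = 0.889) and in 18.5-mel-rad 0.11 ± 0.33 (adjusted p = 0.894), at a mean expression of 58.4 to 68.6 normalized counts. It had the smallest standard error of the 41 genes in each comparison. The symbol c6 was not found in the RefSeq annotation, so overlaps of its span with other genes are not known here.

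The c7b gene had a log2 fold change of 1.4 ± 1.32 in 18.5-mel (adjusted p = 0.448), -2.18 ± 1.1 in 28.5-rad with no adjusted p, and -2.45 ± 0.82 in 18.5-mel-rad (adjusted p = 0.0331), a 5.46-fold fall there. Its mean expression in 18.5-mel-rad, 8.13 normalized counts, was just above the lowest that had an adjusted p. Its span overlaps c6.2 in the RefSeq annotation. The paralog c7a gave -1.23 ± 1.21 in 18.5-mel, -0.74 ± 0.55 in 28.5-rad and -0.82 ± 0.53 in 18.5-mel-rad and was not called. C8 is made of α, β and γ chains, from c8a, c8b and c8g. The log2 fold change of c8a was -2.69 ± 2.09 in 18.5-mel, -2.66 ± 1.88 in 28.5-rad and -2.91 ± 1.82 in 18.5-mel-rad. That of c8b was -2.66 ± 2.48 in 18.5-mel, -2.31 ± 2.21 in 28.5-rad and -2.12 ± 2.13 in 18.5-mel-rad, and that of c8g was -2.22 ± 1.76 in 18.5-mel, -2.99 ± 1.56 in 28.5-rad and -1.81 ± 1.55 in 18.5-mel-rad. None of the C8 chains was called. The most abundant terminal gene, c9, averaged 615 normalized counts in the table of 18.5-mel, 947 in that of 28.5-rad and 681 in that of 18.5-mel-rad. Its log2 fold change was -1.80 ± 2.13 in 18.5-mel (adjusted p = 0.558), -3.01 ± 1.97 in 28.5-rad (adjusted p = 0.669) and -2.59 ± 1.86 in 18.5-mel-rad (adjusted p = 0.437).

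The standard errors of these genes were far above those of other genes of like abundance. Among genes with a mean expression from 100 to 1000 normalized counts, the median standard error of the 21 plasma protein, coagulation and complement genes was 2.07 in 18.5-mel, 1.89 in 28.5-rad and 1.84 in 18.5-mel-rad, against 0.37 over 4364 genes of 18.5-mel, 0.24 over 4694 genes of 28.5-rad and 0.22 over 4808 genes of 18.5-mel-rad in that range. A standard error of 1.5 or more, a limit chosen after the values were seen, was held by 32 of the 41 genes in all 3 comparisons. The 7 genes under that limit in all 3 were c4b, c6, c7a, c7b, f10, kng1 and rbp4, and c5 and f9b were on either side of it. Of the 6 calls, 5 fell on these 7 genes and the other on tfa. The Wald test divides the log2 fold change by its standard error, so calls fall more readily on genes with small errors.

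**Figure D2:**
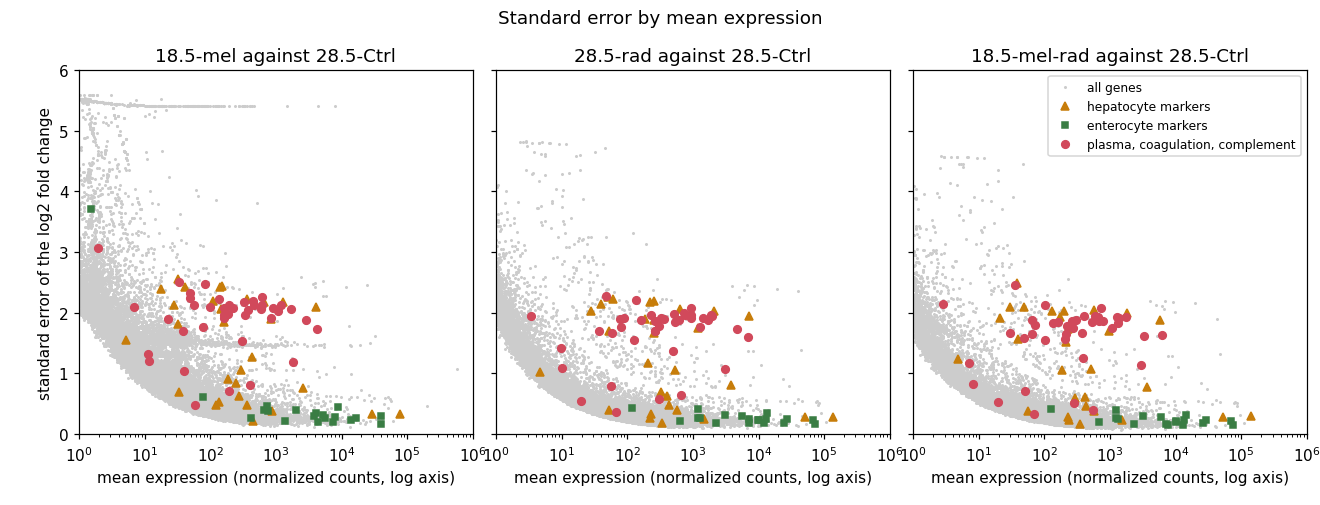
Standard error of the log2 fold change against mean expression (log axis, 1 normalized count or more) for all genes in grey, the 41 plasma protein, coagulation and complement genes as circles, hepatocyte markers as triangles and enterocyte markers as squares. Most of the 41 genes and many hepatocyte markers lie near a standard error of 2, above the grey band of other genes of like abundance, where the enterocyte markers sit.

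Few other abundant genes had such errors. Of the genes with a mean expression of at least 100 normalized counts, 170 of 4930 (3.45%) had a standard error of 1.5 or more in 18.5-mel, 96 of 5339 (1.80%) in 28.5-rad and 85 of 5479 (1.55%) in 18.5-mel-rad. The plasma protein, coagulation and complement genes made up 24 of these 170 genes in 18.5-mel, 25 of the 96 in 28.5-rad and 25 of the 85 in 18.5-mel-rad, and listed hepatocyte markers made up a further 10 in each. The genes of neither list nor of the further pathway lists numbered 132 in 18.5-mel, of which 71 had a log2 fold change below 0, 57 in 28.5-rad, of which 52 did, and 46 in 18.5-mel-rad, of which 42 did. In the irradiated groups nearly all abundant genes with wide errors were thus below 0, with or without the plasma protein genes. Because no value of a single library was used, which library or libraries carried the spread was not tested.

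The mean expression of these genes also differed between the tables. The summed mean expression of the 41 genes was 0.411% of the total in the table of 18.5-mel, 0.636% in that of 28.5-rad and 0.506% in that of 18.5-mel-rad. For the 41 genes the mean expression in the 18.5-mel-rad table over that in the 28.5-rad table had a median of 0.82 and ran from 0.70 to 1.02, against a median of 1.05 over the 5339 genes above 100 normalized counts. The ratio was below 0.9 for 34 of the 41 genes, against 85 of the 5339 (1.59%). These sets are unlike, since the 41 genes were taken at any mean expression. Only 29 of them had 100 normalized counts or more in the 28.5-rad table, and those are also among the 5339. The tables come from separate fits whose libraries are not given, so these ratios describe the tables and do not compare the treated groups.

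**Figure D3:**
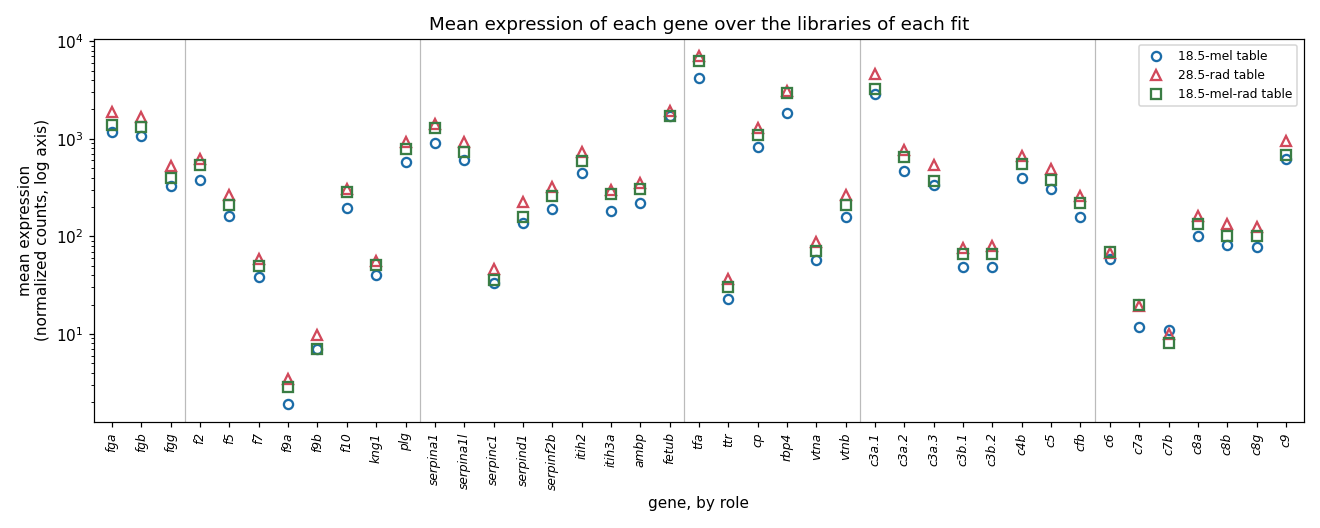
Mean expression (normalized counts, log axis) of each of the 41 genes in the 3 tables, by role, each point being the mean over the libraries of 1 fit. The 28.5-rad table gives the highest value for most genes, from 3.42 for f9a to 7018 for tfa, while c6 and fetub lie at nearly the same level in all 3 tables.

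Hepatocyte markers outside the 45 genes behaved in part like them. Of 32 listed hepatocyte markers, 31 were found, with an adjusted p for 30 in 18.5-mel, 23 in 28.5-rad and 28 in 18.5-mel-rad. Their median log2 fold change was -1.50 in 18.5-mel, -0.91 in 28.5-rad and -1.59 in 18.5-mel-rad, with 2 raised and 7 lowered in 18.5-mel, none called in 28.5-rad, where 1 had an unadjusted p under 0.05, and 2 lowered in 18.5-mel-rad. The shares called over all genes tested were 37.1% in 18.5-mel, 1.94% in 28.5-rad and 11.7% in 18.5-mel-rad. A standard error of 1.5 or more was held by 17 of the hepatocyte markers in 18.5-mel, 16 in 28.5-rad and 16 in 18.5-mel-rad. The liver fatty acid binding protein gene fabp10a, a defining hepatocyte gene of zebrafish, was present at 1281 to 2067 normalized counts and had log2 fold changes of -1.50 ± 2.17 in 18.5-mel, -1.56 ± 2.03 in 28.5-rad and -2.21 ± 2.0 in 18.5-mel-rad. The list held 2.37% to 4.03% of the summed mean expression of a table, most of it in apobb.1, which enterocytes also express. The part of hepatocyte RNA in the results of the plasma protein genes was not tested, and in bulk tissue fewer cells of a type and less RNA per cell cannot be told apart.

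The enterocyte markers mostly had narrower errors, and their medians were also below 0 in 18.5-mel and 18.5-mel-rad. All 20 enterocyte markers were found, with median log2 fold changes of -0.93 in 18.5-mel, 0.34 in 28.5-rad and -0.16 in 18.5-mel-rad, and none of those at 100 normalized counts or more had a standard error of 1.5 or more. Of the 19 enterocyte markers with an adjusted p in each comparison, 12 were lowered in 18.5-mel and 5 were raised in 28.5-rad. In 18.5-mel-rad 1 was raised and 2 were lowered. The shares over all genes tested were 15.8% lowered in 18.5-mel and 1.34% raised in 28.5-rad. In 18.5-mel-rad they were 6.06% raised and 5.68% lowered. Exocrine pancreas markers, 17 of 20 found, were abundant, with 6.21% to 9.22% of the summed mean expression and medians of -0.56 in 18.5-mel, -0.88 in 28.5-rad and -0.69 in 18.5-mel-rad. Of these, 3 were lowered in 18.5-mel and none was called in 28.5-rad, where 2 had an unadjusted p under 0.05, or in 18.5-mel-rad, where 1 had. Ovary markers, 9 of 12 found with figla at 0, were scarce. Their medians were 3.60 in 18.5-mel, 2.31 in 28.5-rad and 2.19 in 18.5-mel-rad. An adjusted p was given for 2 of them in 18.5-mel, of which 1 was raised, for 0 in 28.5-rad and for 4 in 18.5-mel-rad. None had an unadjusted p under 0.05 in the irradiated groups. In 18.5-mel the ovary markers zp3b, zar1, buc, h1m and zp2.2 had a fold change but no p-value. Codes in the labels hold a part with F for both control libraries and a part with F or M for the irradiated libraries. Both 18.5-mel libraries carry codes of another form, starting with PN, and no other library does. The meaning of these codes is not stated, and whatever the PN form marks cannot be told apart from the torpor treatment. The part of what the codes mark, like that of pancreas and ovary RNA, was not tested.

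**Figure D4:**
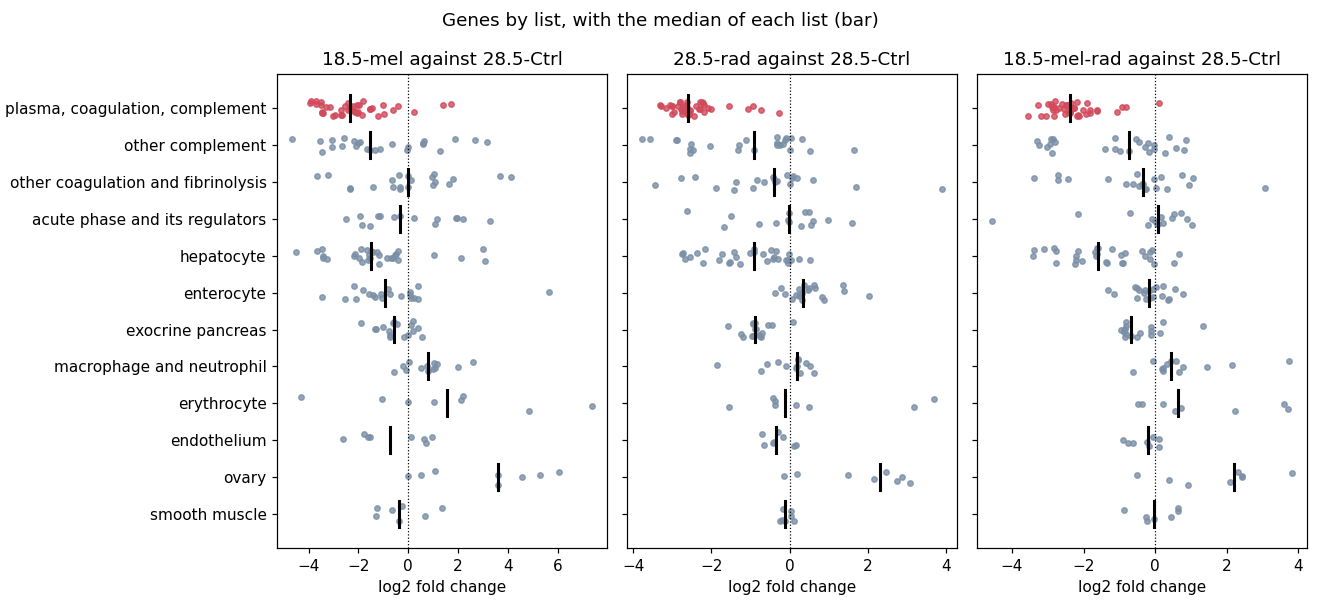
Log2 fold change against 28.5-Ctrl of each gene, by list, for the 41 plasma protein, coagulation and complement genes (red), the other pathway lists and the marker lists, with the list median as a bar. The 41 genes have the lowest median in each comparison (-2.32 in 18.5-mel, -2.60 in 28.5-rad, -2.39 in 18.5-mel-rad), the next lowest are those of the other complement genes in 18.5-mel and of the hepatocyte markers in 18.5-mel-rad, and ovary markers have the highest.

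The remaining genes of these pathways were counted from 3 further lists. Over all genes tested, 37.1% were called in 18.5-mel, 1.94% in 28.5-rad and 11.7% in 18.5-mel-rad. Of 25 other complement genes found, 24 had an adjusted p in 18.5-mel, 12 in 28.5-rad and 20 in 18.5-mel-rad. In 18.5-mel 4 of these genes were raised and 4 lowered. None of these genes was called in 28.5-rad or 18.5-mel-rad, with 1 unadjusted p under 0.05 in each. Their median log2 fold changes were -1.55 in 18.5-mel, -0.91 in 28.5-rad and -0.72 in 18.5-mel-rad. The most raised in 18.5-mel were c1qb (3.15 ± 0.95, adjusted p = 0.00491) and c1qc (2.68 ± 1.19, adjusted p = 0.0727), which encode chains of C1q, the recognition protein of the classical pathway, at 7.87 and 5.44 normalized counts. The most lowered were c1s, the C1 protease that cuts C4 (-3.55 ± 1.57, adjusted p = 0.0701), and c3a.4, a further C3 gene (-3.48 ± 0.98, adjusted p = 0.00228). The C4 gene c4, chosen after its values were seen, was raised in 18.5-mel (1.86 ± 0.74, adjusted p = 0.0423), where c4b was lowered, and had -0.33 ± 0.64 in 28.5-rad and -1.12 ± 0.47 in 18.5-mel-rad (adjusted p = 0.117).

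Of 21 other coagulation and fibrinolysis genes found, 20 had an adjusted p in 18.5-mel, 6 in 28.5-rad and 18 in 18.5-mel-rad. Of these, 2 were raised and 2 lowered in 18.5-mel, 1 was raised in 28.5-rad, and 1 was raised and 1 lowered in 18.5-mel-rad. Those raised in 18.5-mel were f13a1b, encoding a factor XIII A subunit that cross-links fibrin (4.12 ± 0.68, adjusted p = 1.64e-08), and f3a, a tissue factor gene (3.68 ± 1.52, adjusted p = 0.0522, at 5.48 normalized counts). Those lowered in 18.5-mel were anxa2a, encoding annexin A2, which binds plasminogen and its activator at the cell surface (-1.43 ± 0.50, adjusted p = 0.0193), and tfpia, a tissue factor pathway inhibitor gene (-0.62 ± 0.28, adjusted p = 0.0785). The urokinase-type plasminogen activator gene plaub was raised both in 28.5-rad (1.69 ± 0.36, adjusted p = 0.000635) and in 18.5-mel-rad (0.95 ± 0.28, adjusted p = 0.0137), 2 comparisons that share their control libraries by the labels. In 18.5-mel-rad anxa2a was lowered as well (-0.83 ± 0.31, adjusted p = 0.0615).

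Of 15 acute phase genes and regulators found, 15 had an adjusted p in 18.5-mel, 9 in 28.5-rad and 12 in 18.5-mel-rad. Of these, 4 were raised and 3 lowered in 18.5-mel, 1 was raised in 28.5-rad, and 2 were raised and 1 lowered in 18.5-mel-rad. In 18.5-mel the most raised were il6, the gene of the cytokine interleukin 6 (3.30 ± 1.46, adjusted p = 0.0704, at 3.73 normalized counts), and cebpd, a transcription factor of the acute phase response (2.21 ± 0.36, adjusted p = 8.45e-09). The most lowered there were socs3b (-2.52 ± 0.77, adjusted p = 0.00571) and socs3a (-1.93 ± 0.85, adjusted p = 0.0693), inhibitors of cytokine signalling. In 28.5-rad cebpd was raised (0.97 ± 0.29, adjusted p = 0.0573). In 18.5-mel-rad socs3a (1.04 ± 0.40, adjusted p = 0.0698) and leap2, encoding an antimicrobial peptide of the liver (0.90 ± 0.34, adjusted p = 0.0694), were raised. In the same comparison hamp, the gene of the iron hormone hepcidin, was lowered (-4.57 ± 1.33, adjusted p = 0.0110) at 14.3 normalized counts.

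By symbol, 39 of the 41 genes were found in the RefSeq annotation (GRCz12tu, while the tables use another build) on 16 chromosomes. The genes c6 and itih3a were not found there, so their overlaps were not looked up. Neighbouring pairs with no protein-coding gene between them were c3a.2 and c3a.3, c3b.2 and c3b.1, c8a and c8b, and serpina1l and serpina1. The spans of 12 genes overlap another gene, among them those of kng1, rbp4 and c7b named above.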

How the data were processed

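RNA from the GIT was sequenced in 11 samples, and the authors used FastQC and Cutadapt on the reads, STAR for alignment to GRCz11, HTSeq for counting and DESeq2 for each comparison with 28.5-Ctrl. Versions, strand setting and covariates are not given in the sources used here, and sequencing ran at 2 facilities, with no label saying which library ran where. The authors deposited 3 tables of their own comparisons, whose columns were used as deposited. The authors computed the mean expression, a signal in normalized counts averaged over the libraries of each fit, which are not given. The log2 fold change and the error of it were estimated by the authors in DESeq2. The Wald score, their quotient, was computed by the authors and served only to check the columns. The p-value and its Benjamini-Hochberg adjusted form were computed by the authors, and a missing one was kept as missing. No count model was fitted, and 0 columns of single libraries were used.

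Symbols were joined by gene identifier. The thresholds (adjusted p of at most 0.1, log2 fold change of 0.58 or more in size) follow the study's methods. The genes and lists were chosen with earlier results of these data known. Values in full are given for each gene called and for the most abundant gene of each role class, with up to 2 most raised and 2 most lowered called genes of each further pathway list in each comparison. Intervals are 1.96 standard errors on each side. The code of the call rule was run on simulated estimates, drawn from a normal distribution with the deposited standard errors. That run checks the code only and cannot check standard errors estimated from few libraries. A planned test of 18.5-mel-rad minus 28.5-rad was not run, because the tables were normalized separately. Computation used Python 3.11.15, pandas 2.3.3, numpy 2.4.6, scipy 1.17.1 and matplotlib 3.10.9. Alternatives were adjusted p of at most 0.05 and 0.01, no fold threshold and a log2 threshold of 1, Benjamini-Hochberg adjustment over all genes with a p-value, a mean expression of at least 10, 1 entry per identifier, and the mean for the median.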

Additional observations from a re-analysis of the deposited data

How the results depend on the processing

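Of 48 alternatives, 44 left a count of called genes within 1.5 times, or a median within 1 spread, of its value. That says little for 21 of them, which are counts of 0. Nor could a log2 threshold of 1 remove a call, since the smallest change called was 1.72 (c6 in 18.5-mel). Taking 1 entry per identifier could change little. There were 32520 entries for 32520 genes in 18.5-mel and 19072 for 19071 in each irradiated comparison. In 18.5-mel, 2 genes were lowered at an adjusted p of at most 0.05 in place of 3, without tfa, and 1 (rbp4) at 0.01. In 18.5-mel-rad, 1 gene (c7b) was lowered at an adjusted p of at most 0.05 and 0 at 0.01 in place of 2, and 1 (kng1) when a mean expression of at least 10 normalized counts was asked for, since c7b had 8.13. No gene was called in 28.5-rad under any alternative, at 1 gene with an unadjusted p under 0.05. With standard errors near 2, only large changes could pass, so the wide-error genes give no limit on smaller ones. No left-out library could be tried, since no value of a single library was used. The alternatives for 18.5-mel-rad minus 28.5-rad were not run, as the tables were normalized separately. No paired analysis was possible because the results come from deposited comparisons and not from values of single libraries. A control label and a 28.5-rad label share the same F part of their codes. Whether these libraries are linked is not stated.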

Other observations

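Markers of further cell types that GIT tissue can hold were counted in the same comparisons. In 28.5-rad an adjusted p was given for 9 macrophage and neutrophil, 2 erythrocyte, 3 endothelial and 7 smooth muscle markers. These numbers were 13, 6, 8 and 7 in 18.5-mel and 12, 4, 8 and 7 in 18.5-mel-rad. Over all genes tested, 37.1% were called in 18.5-mel, 1.94% in 28.5-rad and 11.7% in 18.5-mel-rad. Of 14 macrophage and neutrophil markers found, 3 were raised in 18.5-mel (list median 0.81), none was called in 28.5-rad (median 0.18, 2 with an unadjusted p under 0.05) and 2 were raised in 18.5-mel-rad (median 0.43). Of 8 erythrocyte markers found, 3 were raised and 1 lowered in 18.5-mel, none was called in 28.5-rad, where 0 had an unadjusted p under 0.05, and 1 was raised in 18.5-mel-rad. Of 8 endothelial markers, 2 were lowered in 18.5-mel and none was called in the other comparisons, with 0 at an unadjusted p under 0.05 in 28.5-rad and 2 in 18.5-mel-rad. Of 7 smooth muscle markers, 2 were raised and 3 lowered in 18.5-mel and none was called in the irradiated groups, with 0 at an unadjusted p under 0.05 in 28.5-rad and 2 in 18.5-mel-rad, and with standard errors of at most 0.59.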
